A study of Mus musculus with 11 samples.

Results

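Sorted CD45.1 TAµ cells were compared with sorted CD45.1 µ cells from the same kind of transplanted mouse brain. The comparison used 6 of the 11 libraries of the series: the 3 libraries titled TAµ and the 3 titled µ among those whose genotype label is CD45.1. Each population had 1 library from mice given cells intravenously (IV), 1 from the intracerebroventricular route (ICV) and 1 from the intrathecal lumbar route (ITL). All 24411 genes of the tables were followed. Values of 3 libraries are given below in the order IV, ICV, ITL.

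Both groups carry the label microglia-like cells from brain, and both were sorted as myeloid cells from recipients of blood-forming stem and progenitor cells in competitive transplants. CD45.1 and CD45.2 are alleles of the leukocyte surface gene Ptprc that serve to tell donor from host cells. The labels do not say which allele marked the host, what TAµ or PBS stands for, or the age, sex or number of the animals. The series title names a mouse model of Alzheimer's disease, and the labels name no disease allele for any library. Beside the comparison stand the CD45.2 µ libraries of the same routes, a CTR µ library and a CD45.2 ICV library labelled PBS. Counts per gene do not separate alleles, so the sort could not be checked by allele here. Xist, an RNA of female cells, and Y-linked RNA were both found in every library of the comparison, as given below. At each route CD45.1 µ lay between TAµ and CD45.2 µ in both. Whether cells of one sorted population were present in another was not tested.

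Microglia are the resident macrophages of the brain and descend from early embryonic precursors. They are known for a set of homeostatic genes, such as the purine receptor gene P2ry12, Tmem119 and the fractalkine receptor gene Cx3cr1, that depends on the transcription factor Sall1 and on signals of the brain. Blood-derived macrophages that enter the brain after a transplant take on part of this program, express Apoe and Ms4a7, and are known to express little Sall1.

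The markers Csf1r and Cx3cr1 of the labelled cell type were present in all 6 libraries. Of 34 homeostatic microglia genes, however, 30 were fitted lower in TAµ, as given below. Csf1r, the receptor gene that macrophages need to survive, had 4734, 4003 and 5484 CPM (read counts scaled by library depth and composition) in µ and 4314, 5562 and 4382 CPM in TAµ. Cx3cr1 had 2016, 2531 and 3293 CPM in µ and 1982, 3232 and 2470.5 CPM in TAµ. For both genes the 2 populations overlapped, and the fitted log2 fold changes of TAµ against µ were -0.01 ± 0.21 (SE, n = 3 per population) and -0.04 ± 0.20.

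The 6 libraries held 9513898 to 17048115 counts. At a common depth of 9513898 counts the µ libraries had 12021, 11418 and 12199 genes with a count, and the TAµ libraries had 15150, 13479 and 15485. More genes were thus detected in TAµ at each route, and depth was equal in that count. Of genes with a mean of 4 to 8 CPM in TAµ, 11%, 24.3% and 9.50% had 0 counts in the µ libraries. The reverse shares, for genes with that mean in µ, were 0.804%, 4.82% and 0.438% in the TAµ libraries. The ICV library was the one with the most genes at 0 in each population. The pre-ribosomal transcript Rn45s took 11.9%, 6.98% and 12.1% of counts in µ and 8.95%, 25.1% and 23.5% in TAµ. What part these differences had in the results below was not tested.

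**Figure D1:**
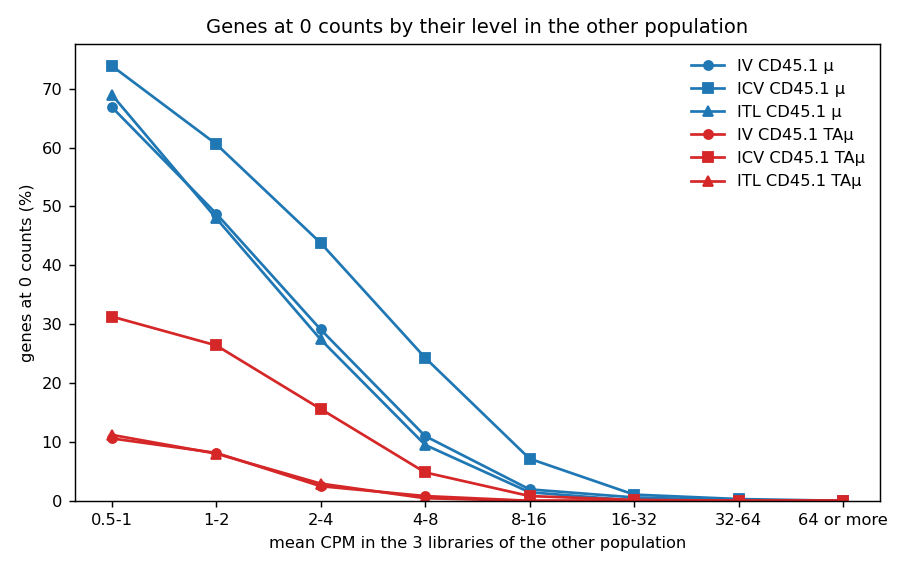
Share of genes (percent, vertical axis) with 0 counts in each of the 6 libraries, by the mean CPM of the gene in the 3 libraries of the other population (horizontal axis). The 3 µ libraries (blue) lie above the 3 TAµ libraries (red) in every bin up to 8 to 16 CPM, with 24.3% in ICV µ and 0.438% in ITL TAµ at 4 to 8 CPM, and all are at 0 from 64 CPM on.

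Of the 13339 genes that passed the filter on low counts, 10 differed between TAµ and µ in edgeR's quasi-likelihood test with route as a block (adjusted p under 0.05). The 3 that were higher in TAµ were Snord32a, Snord104 and Rmrp, or 0.0225% of the genes tested. The 7 that were lower were Sall1, Sall3, Nav3, St3gal5, Adamts1, Sgce and Xist, or 0.0525%. Over all genes tested, 54.0% were fitted higher and 46.0% lower, with a median log2 fold change of 0.06. For 9.46% of them the 3 TAµ libraries all lay above the 3 µ libraries in CPM, and for 4.65% they all lay below. These shares are the background for each list of genes described below.

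The number of calls rested on single libraries. Without IV TAµ 0 genes were called by edgeR, with 683 at an unadjusted p under 0.05, and without ITL µ or ICV µ 1 gene was called, Sall1. With each of the 9 libraries of the fit left out in turn, Sall1 passed 8 times, Xist and Snord32a 6 times, Sall3, Nav3, Adamts1 and Rmrp 5 times, Snord104 4 times, and St3gal5 and Sgce 3 times. All 10 kept their sign in each of these fits. Which library moved a size most differed by gene. Without ICV TAµ Nav3 stood at -3.98 on the log2 scale, Xist at -5.03, Adamts1 at -6.26 and Rmrp at 1.41. Without ICV µ Snord32a and Snord104 stood at 2.56 and 2.39, without IV µ Sall3 and Sgce at -5.58 and -4.92, and without IV TAµ St3gal5 and Adamts1 at -2.75 and -3.23. For gene lists, the median of 26 of the 41 lay on both sides of 0 as single libraries were left out, and that of 15 stayed on 1 side. By size the routes differed too: a difference of at least 2-fold was seen for 3005 genes higher and 1214 lower at IV, 3995 and 2219 at ICV, and 3088 and 1160 at ITL. With 1 library per route and population these counts by route carry no test.

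Sall1, which encodes the zinc finger factor that maintains microglial identity, had 79.4, 107 and 343 CPM in µ and 2.09, 7.34 and 8.52 CPM in TAµ. The lowest µ library lay well above the highest TAµ library, so the populations did not overlap. Sall1 fell by 4.83 ± 0.49 on the log2 scale (adjusted p = 0.000199), which is 28.4-fold. CD45.2 µ had 472, 187 and 648 CPM, CTR µ 1058 CPM and PBS 84.8 CPM. Every µ library, of either allele, was therefore above every TAµ library. Since these are bulk samples, fewer cells that express the gene and less RNA per cell cannot be told apart, here and below.

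Sall3, a relative of Sall1 in the same gene family, had 10.4, 34.3 and 81.1 CPM in µ and 0.697, 1.14 and 2.02 CPM in TAµ. It fell by 4.96 ± 0.76 (adjusted p = 0.00826), and its TAµ levels were near the limit of 0.190 to 0.336 CPM that a count of 0 allows in these libraries. In both populations the ITL library had the highest Sall1 and Sall3 and the IV library the lowest. Nav3, whose product binds microtubules, had 54.2, 109 and 151 CPM in µ and 6.91, 17.2 and 8.29 CPM in TAµ. It fell by 3.25 ± 0.52 (adjusted p = 0.0188), or 9.54-fold, without overlap.

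**Figure D2:**
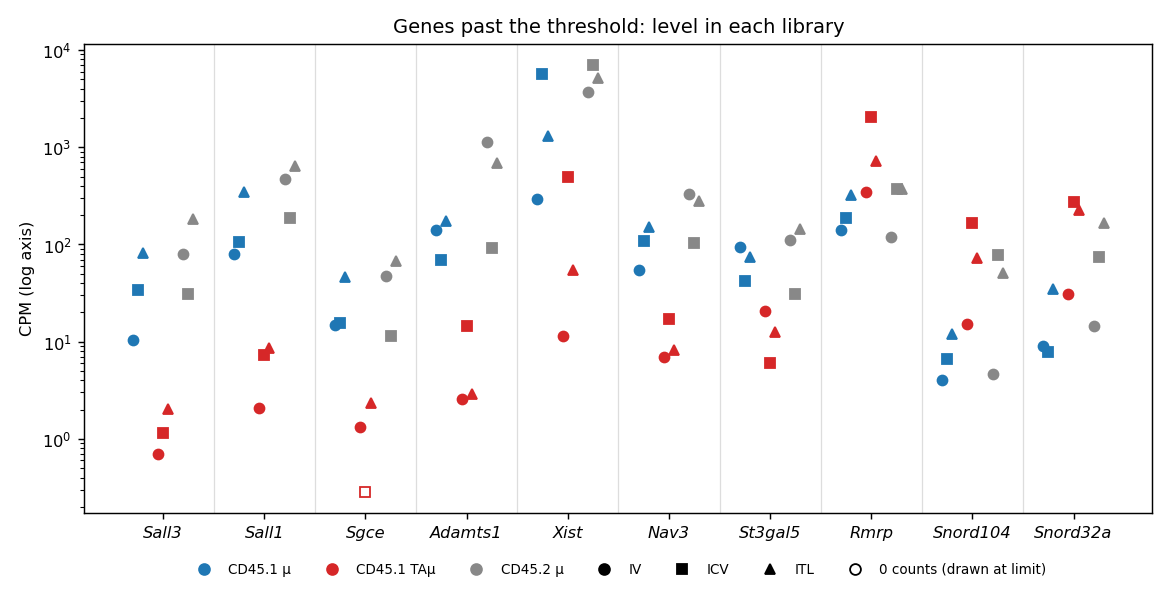
Level (CPM, log axis) of the 10 genes past the threshold in each library of CD45.1 µ (blue), CD45.1 TAµ (red) and, for reference, CD45.2 µ (grey). Circles are IV, squares ICV and triangles ITL. The open square is Sgce in ICV TAµ, which had 0 counts and is drawn at the limit this allows. Sall1 runs from 79.4 to 343 CPM in CD45.1 µ and from 2.09 to 8.52 CPM in TAµ.

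Sall1, Sall3 and Nav3 belong to a list of 35 homeostatic microglia genes, of which 34 were in the tables and all 34 were tested. In TAµ 3 of them fell, 30 were fitted lower and 4 higher, and the median log2 fold change was -0.52. For 13 of the 34 the TAµ libraries all lay below the µ libraries, beside 4.65% of all genes, and for 0 they all lay above. The size of the difference was uneven across the list. Beside Sall1 at -4.83 ± 0.49 stood Tmem119 at -0.11 ± 0.25 and Cx3cr1 at -0.04 ± 0.20.

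P2ry12 had 983, 1270.3 and 2315 CPM in µ and 667, 1093 and 819.9 CPM in TAµ. It was lower in TAµ at each route, but ICV TAµ lay above IV µ, and the log2 fold change of -0.74 ± 0.29 did not pass (adjusted p = 0.874). Tmem119 had 373, 416 and 673 CPM in µ and 311, 588 and 445 CPM in TAµ. It was lower in TAµ at IV and ITL and higher at ICV.

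By route, the median log2 difference of the homeostatic list was -0.52 at IV, -0.21 at ICV and -0.93 at ITL. The ICV pair thus differed least for this list. Leaving out both ICV libraries, an alternative added after the data were seen, the median was -0.71, with 1 member higher and 33 lower. With 1 CD45.1 library left out in turn it ran from -0.81 to -0.33. The summed level of the list was 26443, 24890.0 and 37579 CPM in µ and 19994, 29884 and 24813 CPM in TAµ, so at ICV the sum was higher in TAµ. That sum is led by abundant genes such as Csf1r and Cx3cr1, whereas the called genes are of low or middle abundance. Csf1r and Cx3cr1 were near equal in the fit over routes, but at ICV both were higher in TAµ, with log2 differences of 0.47 and 0.35.

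**Figure D3:**
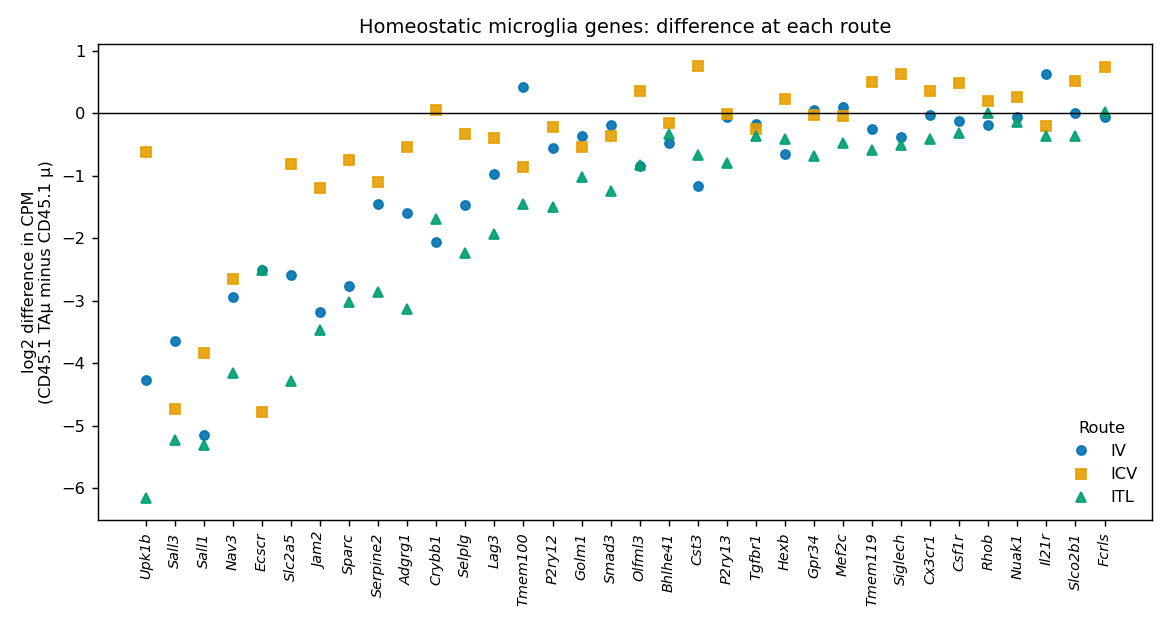
Log2 difference in CPM between CD45.1 TAµ and CD45.1 µ (vertical axis) for the 34 tested homeostatic microglia genes, ordered by the fitted fold change, at IV (blue circles), ICV (orange squares) and ITL (green triangles). Sall3, Sall1 and Nav3 lie below -2 at all 3 routes, while the right part of the list, with Cx3cr1 and Csf1r, scatters around 0.

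Further homeostatic genes were lower in each TAµ library without passing the test. Ecscr, which encodes a small membrane protein, had 20.2, 40.7 and 39.5 CPM in µ and 3.42, 1.33 and 6.84 CPM in TAµ (log2 fold change -3.20 ± 0.63, adjusted p = 0.0725). Slc2a5, the fructose transporter gene of microglia, had 48.9, 35.6 and 156 CPM in µ and 7.99, 20.1 and 7.84 CPM in TAµ (-2.49 ± 0.54, adjusted p = 0.149). The ICV pair again differed least for Slc2a5 and most for Ecscr. Sparc, a secreted matrix-binding glycoprotein gene, had 575, 482 and 1005 CPM in µ and 84, 288 and 124 CPM in TAµ (-2.0 ± 0.48, adjusted p = 0.266). Selplg, which encodes the ligand of P-selectin, had 693, 417 and 1251 CPM in µ and 249.7, 329 and 265 CPM in TAµ (-1.32 ± 0.30, adjusted p = 0.204). Jam2, a junctional adhesion gene, stood at -2.47 ± 0.78 (adjusted p = 0.759).

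Outside that list, Lrrc3, which encodes a membrane protein with leucine-rich repeats, came nearest to the threshold among genes fitted lower. It had 136, 54.3 and 168 CPM in µ and 40.3, 27.7 and 35.6 CPM in TAµ, with a log2 fold change of -1.69 ± 0.31 (adjusted p = 0.0553). Fscn1, the gene of the actin-bundling protein fascin, had 103, 91.7 and 289.8 CPM in µ and 14.3, 38.9 and 18.5 CPM in TAµ (-2.56 ± 0.52, adjusted p = 0.0889). Neither overlapped between the populations. Stxbp5 (-1.02 ± 0.26), D15Ertd621e (-1.01 ± 0.26), Arhgap5 (-1.10 ± 0.29) and Dennd4a (-0.88 ± 0.23) were also below every µ library in TAµ, with adjusted p of 0.424 for the first 3 and 0.458 for Dennd4a. Itgam, the CD11b gene by which myeloid brain cells are commonly sorted, had 1209.6, 871 and 1285 CPM in µ and 727, 802 and 787 CPM in TAµ. Its log2 fold change of -0.52 ± 0.21 did not pass (adjusted p = 0.874). Ptprc, the CD45 gene, had 539, 700.4 and 589 CPM in µ and 783, 656 and 860.4 CPM in TAµ, which overlapped (0.33 ± 0.23, adjusted p = 0.874).

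Transcription factors of the myeloid lineage were also listed. Of 27, all tested, Sall1 and Sall3 fell and the other 25 did not pass. In all, 18 were fitted lower and 9 higher, with a median of -0.14. TAµ lay below all µ libraries for 6 and above for 2, beside 4.65% and 9.46% of all genes. Mef2a, a factor active at microglial enhancers, had 837, 1092 and 819 CPM in µ and 803, 644 and 661 CPM in TAµ (-0.39 ± 0.21, adjusted p = 0.874). Cebpb, a factor of inflammatory macrophage genes, had 194, 209 and 118 CPM in µ and 215, 344 and 196 CPM in TAµ (0.52 ± 0.24, adjusted p = 0.874).

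Transforming growth factor β, the signal known to hold microglia in their homeostatic state, acts through receptors and Smad factors. The 30 tested genes of this pathway, of 31 listed, held 0 calls, with 13 fitted higher, 17 lower and a median of -0.03. Smad3, which carries the signal to the nucleus, had 157, 140.3 and 225 CPM in µ and 137, 108 and 94.2 CPM in TAµ (-0.62 ± 0.28, adjusted p = 0.874). Of its type I and II receptor relatives, Bmpr2 stood at -0.47 ± 0.22 and Acvrl1 at 1.19 ± 0.39. Acvrl1 was above every µ library in each TAµ library and Bmpr2 below, and neither passed.

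St3gal5 encodes the enzyme that makes GM3, the first ganglioside of the series found on cell surfaces. It had 93.8, 42.4 and 74.9 CPM in µ and 20.7, 6.01 and 12.4 CPM in TAµ, so that each TAµ library lay below each µ library. St3gal5 fell by 2.48 ± 0.40 (adjusted p = 0.0188), or 5.57-fold. In CD45.2 µ it had 112, 31.1 and 144 CPM and in CTR 161 CPM. Among the 21 tested genes of ganglioside synthesis and breakdown, of 26 listed, St3gal5 was the 1 call. The others divided, with 9 of the 21 fitted higher and 12 lower and a median of -0.05. The sialyltransferase genes St3gal2 (53.1, 56.2 and 49.9 CPM in µ, 24.2, 22.5 and 24.2 CPM in TAµ) and St6galnac4 (107, 92.2 and 102 and 72.8, 75.2 and 77.3 CPM) were also below every µ library. Their log2 fold changes of -1.20 ± 0.40 and -0.43 ± 0.27 did not pass (adjusted p = 0.819 and 0.874).

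Adamts1 encodes a secreted metalloprotease that cleaves proteoglycans of the matrix. It had 139.9, 69.2 and 175 CPM in µ and 2.60, 14.5 and 2.91 CPM in TAµ. The ICV pair stood closest together, with ICV µ the lowest of the µ libraries and ICV TAµ the highest of the TAµ libraries. Adamts1 fell by 4.26 ± 0.76 (adjusted p = 0.0404), or 19.2-fold. Its size rested on the libraries in the fit, as given above. CD45.2 µ had 1142, 91.1 and 686 CPM.

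Sgce encodes ε-sarcoglycan, a membrane protein of the complex that links dystrophin to the matrix. It had 15, 15.5 and 46.5 CPM in µ and 1.33, 0 and 2.35 CPM in TAµ, where the 0 at ICV allows up to 0.286 CPM. It fell by 4.37 ± 0.81 (adjusted p = 0.0428), and of the 10 genes it was the one called under the fewest alternatives, 8 of 21. Adamts1 and Sgce were the 2 calls among 22 tested genes for matrix proteases and sarcoglycans, of 30 listed. Of the 22, 13 were fitted higher and 9 lower (8 and 14 without ICV µ). TAµ lay above all µ libraries for 5 and below for 2, beside 9.46% and 4.65% of all genes. Mmp12, the macrophage elastase gene, had 22.7, 0.0814 and 0 CPM in µ and 66.1, 37.5 and 37.2 CPM in TAµ (2.65 ± 0.74, adjusted p = 0.543). The direction of Mmp12 was opposite to that of Adamts1, and the populations did not overlap for either.

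Xist, the RNA that coats the inactive X chromosome of female cells, had 294, 5702 and 1304 CPM in µ and 11.5, 489 and 54.6 CPM in TAµ. It fell by 4.01 ± 0.54 (adjusted p = 0.00730), or 16.1-fold, and was lower in TAµ at each route. The populations overlapped, since ICV TAµ lay above IV µ. The summed level of the 4 Y-linked genes Kdm5d, Uty, Ddx3y and Eif2s3y was 348, 74.4 and 162 CPM in µ and 458, 210.3 and 314 CPM in TAµ. Each of the 6 libraries therefore held both Xist and Y-linked RNA. In CD45.2 µ Xist had 3703, 6967 and 5116 CPM, and the Y-linked sum was 42.1, 1.33 and 3.43 CPM. At each route CD45.1 µ thus lay between TAµ and CD45.2 µ on both measures. Eif2s3y had 31.2, 7.08 and 23.4 CPM in µ and 66.6, 31.3 and 57.9 CPM in TAµ (1.41 ± 0.47, adjusted p = 0.814). Kdm5c, an X-linked gene known to escape inactivation, had 166, 162 and 168 CPM in µ and 127, 83.5 and 107 CPM in TAµ (-0.67 ± 0.25, adjusted p = 0.874). Since Xist was lower and Y-linked RNA higher in TAµ at every route, sorted population and sex of the cells cannot be told apart within these 6 libraries. Outside them, CTR had 0 counts of Xist, a Y-linked sum of 339 CPM and 1058 CPM of Sall1. PBS had 6049 CPM of Xist, a Y-linked sum of 0.0504 CPM and 84.8 CPM of Sall1. What part sex had in the differences was not tested. Among the µ libraries the order by Xist was ICV, ITL, IV, and that by Sall1 was ITL, ICV, IV.

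The 3 genes that rose in TAµ are short noncoding RNAs. Small nucleolar RNAs (snoRNAs) lie mostly in introns of host genes, are released when the intron is processed, and guide chemical changes of ribosomal RNA. Those with C and D boxes guide methylation, and those with H and ACA boxes guide pseudouridylation. Rmrp is the RNA part of an endonuclease that acts on pre-ribosomal RNA. The RNA was labelled polyA, and mature snoRNAs and Rmrp do not normally carry a long poly(A) tail.

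The transcripts of the called snoRNAs and of the next nearest to the threshold are shown with their boxes, as the mouse GENCODE M21 transcripts give them. Capitals mark the C box TGATGA near the 5′ end and the D box CTGA near the 3′ end on the transcript strand. Both were found within 20 bases of the ends in 32 of the 48 tested C/D box snoRNAs with a transcript there (66.7%).
Snord32a: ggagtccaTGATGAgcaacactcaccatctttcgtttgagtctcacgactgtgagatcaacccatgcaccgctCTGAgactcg
Snord104: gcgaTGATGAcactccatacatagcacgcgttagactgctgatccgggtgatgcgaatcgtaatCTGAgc
Snord83b: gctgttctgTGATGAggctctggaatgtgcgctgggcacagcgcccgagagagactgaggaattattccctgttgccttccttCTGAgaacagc
Snord100: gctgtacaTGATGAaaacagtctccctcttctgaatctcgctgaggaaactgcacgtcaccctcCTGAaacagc
Rmrp is longer, at 271 bases, and is shown whole because it is the third RNA that rose.
Rmrp: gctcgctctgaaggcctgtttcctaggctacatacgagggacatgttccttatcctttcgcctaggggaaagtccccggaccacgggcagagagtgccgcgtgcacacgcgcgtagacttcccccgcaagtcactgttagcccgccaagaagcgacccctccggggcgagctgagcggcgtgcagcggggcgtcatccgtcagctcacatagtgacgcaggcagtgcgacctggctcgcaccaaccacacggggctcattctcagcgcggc

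Snord32a, which lies in the ribosomal protein gene Rpl13a, had 9.04, 7.89 and 34.7 CPM in µ and 31.2, 275 and 226 CPM in TAµ. It rose by 3.22 ± 0.47 on the log2 scale (adjusted p = 0.00826), although IV TAµ was still below ITL µ. Snord104 had 4.02, 6.59 and 11.9 CPM in µ and 15.2, 165 and 71.7 CPM in TAµ and rose by 3.22 ± 0.52 (adjusted p = 0.0188) without overlap. Rmrp had 139.8, 189 and 322 CPM in µ and 347, 2033 and 729.6 CPM in TAµ and rose by 1.97 ± 0.34 (adjusted p = 0.0397), or 3.93-fold. For all 3 RNAs ICV TAµ was the highest of the 6 libraries and ITL TAµ the next. In CD45.2 µ Snord32a had 14.6, 74.5 and 166 CPM, Snord104 4.69, 78.6 and 50.8 CPM, and Rmrp 119.7, 369.8 and 376 CPM. CTR had 700.3 CPM of Snord32a, 291 CPM of Snord104 and 1643 CPM of Rmrp.

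The same direction held across the class. Of 119 snoRNAs listed, all in the tables, 81 passed the filter, and 28 had 0 counts in the 3 µ libraries against 17 in the 3 TAµ libraries. Of the 81, 2 rose, 73 were fitted higher and 8 lower, and TAµ lay above all µ libraries for 45 and below for 0, beside 9.46% and 4.65% of all genes. The median log2 fold change was 2.74, or 2.68 with members at 0 in µ set to the limit that 0 counts allow. By route it was 1.64 at IV, 3.99 at ICV and 2.25 at ITL, and without the ICV pair it was 2.11. C/D box snoRNAs (49, median 2.88) and H/ACA box snoRNAs (26, median 2.82) stood close together, and the 6 Cajal body RNAs were lower at 0.88.

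Some members came near the threshold. Snord83b, in an intron of Rpl3, had 14.8, 5.04 and 23.4 CPM in µ and 39.7, 248 and 143 CPM in TAµ (2.97 ± 0.58, adjusted p = 0.0725). Snord100, in an intron of Rps12, had 5.02, 1.30 and 7.74 CPM in µ and 13.7, 103 and 61.5 CPM in TAµ (3.37 ± 0.67, adjusted p = 0.0725). Snord12 stood at 4.24 ± 0.88 (adjusted p = 0.0772), Snord68 at 4.30 ± 0.94 (adjusted p = 0.128) and the abundant Snord17 at 1.58 ± 0.39 (adjusted p = 0.341). None of these 5 overlapped between TAµ and µ.

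The host genes did not move as far. A tested host could be named for 64 of the 81 snoRNAs, which share 51 hosts. The median log2 fold change was 2.78 over these 64 snoRNAs and 0.19 over their hosts. For 57 of the 64 the snoRNA stood above its host. Of the 51 hosts 36 were fitted higher and 15 lower, and 0 were called. TAµ lay above all µ libraries for 3 of the 51, beside 9.46% of all genes. How the authors' counting gave reads to a snoRNA or to the intron around it is not given in the sources used here, so single snoRNA counts are uncertain. Gas5, a noncoding host of several snoRNAs, had 43.7, 46.9 and 44.7 CPM in µ and 111, 88.3 and 74.1 CPM in TAµ (1.00 ± 0.31, adjusted p = 0.784).

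**Figure D4:**
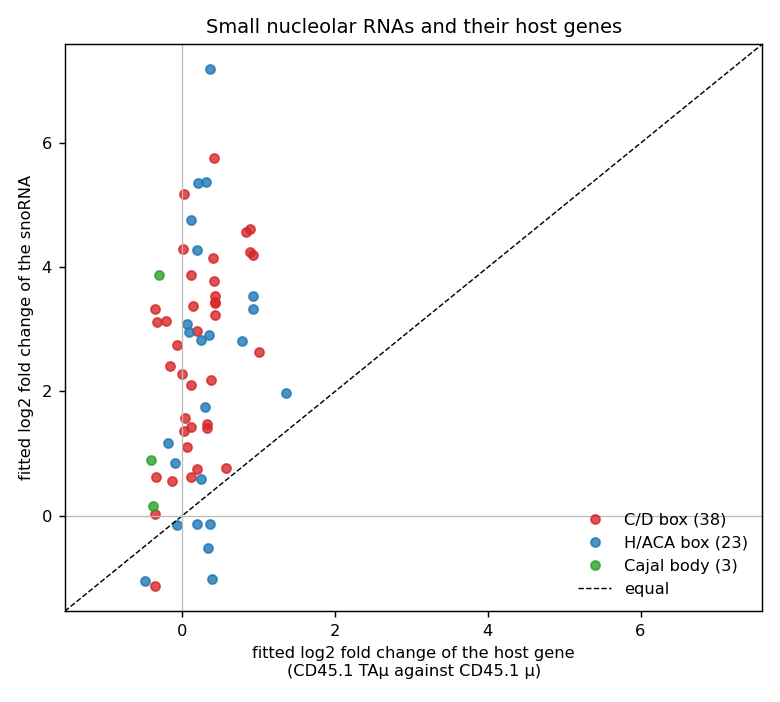
Fitted log2 fold change of CD45.1 TAµ against CD45.1 µ for 64 snoRNAs (vertical axis) and for the host gene of each (horizontal axis), with C/D box in red, H/ACA box in blue and Cajal body RNAs in green. The dashed line marks equal change. The points form a column around a host value of 0, and 57 of the 64 lie above the line.

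Short transcripts other than snoRNAs were nearer to the background than snoRNAs were. Of 178 tested genes whose longest transcript is under 200 bases, 76 of them snoRNAs, TAµ lay above all µ libraries for 29.8%. With snoRNAs set aside by their gene symbols (Snora, Snord and Scarna), 10 of the 102 others did so (9.80%), beside 9.46% of all genes. That share was 13 of 65 genes that are no snoRNA at 200 to 500 bases, 11.7% at 500 to 1000 and 8.86% at 8000 or more. The median log2 fold change of genes not set aside was 0.46 in the shortest class, with genes at 0 in µ at their limit. It was -0.20 in the longest, where TAµ lay below all µ libraries for 12.3% of genes. The snoRNA share of all counts was 0.0874%, 0.0494% and 0.114% in µ and 0.170%, 0.332% and 0.212% in TAµ, with 0.646% in CTR. At IV the snoRNA share was higher in TAµ while the Rn45s share was lower (8.95% against 11.9%). At ICV and ITL both shares were higher in TAµ. What part RNA size, RNA yield or library preparation had in these shares was not tested.

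A list of other structural RNAs was mixed in size. It also holds the protein-coding gene Lars2 (1.41 ± 0.62, adjusted p = 0.874). Of 16 tested, from 23 listed, Rmrp rose, 14 were fitted higher and 2 lower, and the median was 0.90 (0.88 with members at 0 in µ at their limit). Rnu73b, a small noncoding RNA gene, had 0.642, 0.651 and 3.83 CPM in µ and 3.04, 52.7 and 41.9 CPM in TAµ (4.20 ± 0.80, adjusted p = 0.0585). By its symbol Rnu73b was not counted with the snoRNAs above, and its class was not checked. Rpph1, the RNA of ribonuclease P, had 284, 230.0 and 381 CPM in µ and 333, 833 and 496 CPM in TAµ (0.80 ± 0.29, adjusted p = 0.874). Rn45s itself stood at 0.82 ± 0.39 (adjusted p = 0.874). Messages for cytosolic ribosomal proteins held 0 calls among 79 tested, with 70 fitted higher, and their median of 0.29 was -0.20 at IV, 0.62 at ICV and 0.34 at ITL. Without ITL TAµ it was 0.05, with 44 higher and 35 lower.

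MHC class II molecules display peptides to helper T cells, and their α and β chains are held by the invariant chain Cd74 until a peptide is loaded. None of the 16 listed and tested genes of this pathway passed. All 16 were fitted higher in TAµ with a median of 0.71, and the 3 routes gave like medians of 0.70, 0.99 and 0.77. TAµ lay above all µ libraries for 5 of the 16, beside 9.46% of all genes. H2-Eb1, a β chain gene, had 436, 278 and 205 CPM in µ and 857, 954 and 1117 CPM in TAµ (1.71 ± 0.33, adjusted p = 0.0725). H2-Aa, an α chain gene, had 593, 580.3 and 427 CPM in µ and 1296, 1475 and 1620.0 CPM in TAµ (1.46 ± 0.30, adjusted p = 0.0999). For both genes each TAµ library was above each µ library. H2-Eb1 was past the threshold under 9 of 21 alternatives and H2-Aa under 7.

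Cd74 had 1772, 1331 and 883 CPM in µ and 2891, 3078 and 2987 CPM in TAµ, where the 3 values were close (1.22 ± 0.29, adjusted p = 0.275). H2-Ab1 had 345, 397 and 164 CPM in µ and 560.0, 571 and 762 CPM in TAµ (1.17 ± 0.37, adjusted p = 0.796). H2-DMa, which encodes a chain of the peptide-loading factor, was uneven by route, with 131, 92.8 and 150.5 CPM in µ and 132, 371 and 200 CPM in TAµ (0.75 ± 0.34, adjusted p = 0.874). In CD45.2 µ the levels of H2-Eb1 were 316, 731 and 239 CPM and those of Cd74 1113, 2516 and 749 CPM, and CTR had 114 and 451 CPM.

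MHC class I genes, which present to cytotoxic T cells, had a smaller median. Of 16 tested, from 19 listed, 13 were fitted higher and 3 lower with a median of 0.29, and 0 passed. Without ITL TAµ the median was 0.02, with 9 higher and 7 lower. H2-K1, a classical heavy chain gene, had 651, 661 and 597 CPM in µ and 954, 963 and 887 CPM in TAµ (0.54 ± 0.21, adjusted p = 0.874). Tap2, a subunit of the peptide transporter, stood at 0.81 ± 0.37 (adjusted p = 0.874). Interferon-stimulated genes held 0 calls among 35 tested, with 22 fitted higher, 13 lower and a median of 0.14. Without IV TAµ 17 of these were higher and 18 lower.

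Genes known from graft-derived brain macrophages were high in both populations. Apoe, whose product carries lipids between brain cells, had 23944, 15894 and 22169 CPM in µ and 15988, 31113 and 28430.5 CPM in TAµ, and the log2 fold change was 0.15 ± 0.39 (adjusted p = 0.968). Its direction was not stable: it was higher in TAµ at ICV and ITL and lower at IV. Ms4a7, a membrane protein gene of such macrophages, had 113, 187 and 98.5 CPM in µ and 180.3, 201 and 294 CPM in TAµ (0.86 ± 0.38, adjusted p = 0.874), and CTR had 5.74 CPM. The µ and TAµ levels of Ms4a7 overlapped. Of the 29 tested genes of this list, from 30 listed, 0 passed, and 27 were fitted higher and 2 lower. TAµ lay above all µ libraries for 8 of the 29, beside 9.46% of all genes. The median was small at 0.29, and with 1 library left out it ran from 0.09 to 0.63.

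Ms4a6c had 273, 282 and 245 CPM in µ and 351, 419 and 536 CPM in TAµ (0.68 ± 0.30), and Cxcl16, a chemokine gene, stood at 0.57 ± 0.25. Both were above every µ library in TAµ with an adjusted p of 0.874. Tmem176b stood at 0.67 ± 0.32 with the same adjusted p. Ccr2, the receptor gene by which monocytes leave the marrow, had 28.3, 39.1 and 26.6 CPM in µ and 125, 32.9 and 99.5 CPM in TAµ (1.44 ± 0.53, adjusted p = 0.874). It was higher in TAµ at IV and ITL and lower at ICV.

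Genes of the disease-associated state, which microglia enter near amyloid plaques, had a median near that of all genes. Of 28 listed and tested, 0 passed, 20 were fitted higher and 8 lower, and the median was 0.09. Without ICV µ 9 were higher and 19 lower. Trem2, the receptor gene this state depends on, had 458, 204 and 409 CPM in µ and 232, 540.2 and 483 CPM in TAµ (0.20 ± 0.32, adjusted p = 0.939), lower in TAµ at IV and higher at the other routes. Itgax, the CD11c gene, had 46.8, 14.6 and 32 CPM in µ and 69.8, 75.6 and 102 CPM in TAµ (1.39 ± 0.38, adjusted p = 0.543) without overlap. Spp1, which encodes osteopontin, stood at 0.81 ± 0.42 and Cst7, a protease inhibitor gene, at -1.69 ± 0.88. Genes of lipid and cholesterol handling held 0 calls among 34 tested, with 26 fitted higher and a median of 0.38. Pltp, a phospholipid transfer protein gene, had 19.1, 38 and 29.4 CPM in µ and 37.3, 153 and 60.8 CPM in TAµ (1.40 ± 0.38, adjusted p = 0.529).

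Genes of adhesion and matrix went both ways. Of 30 listed and tested adhesion genes 0 passed, and the median was 0.04. TAµ lay above all µ libraries for 5 of the 30 and below for 5, beside 9.46% and 4.65% of all genes. Fn1, the fibronectin gene, had 76.7, 38.4 and 96.2 CPM in µ and 235, 170.2 and 169.5 CPM in TAµ (1.59 ± 0.41, adjusted p = 0.424), with no overlap. Itgb3, an integrin β chain gene, had 12.4, 11.1 and 37.3 CPM in µ and 5.07, 3.34 and 7.96 CPM in TAµ (-1.90 ± 0.63, adjusted p = 0.819). Complement genes held 0 calls among 20 tested, with 12 fitted higher and 8 lower, and without ICV µ 8 were higher and 12 lower. C1qa, a chain of the first complement component, had 312, 357 and 632 CPM in µ and 413, 1064 and 777 CPM in TAµ (0.72 ± 0.28, adjusted p = 0.874).

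Cell cycle genes held 0 calls among 42 listed and tested, with 16 fitted higher and 26 lower and a median of -0.24. Without IV µ the median was 0.07, with 23 higher and 19 lower, and without the ICV pair 21 were higher and 21 lower. Mki67, the proliferation marker, had 108, 153 and 132 CPM in µ and 99.2, 77.8 and 82.4 CPM in TAµ (-0.62 ± 0.29, adjusted p = 0.874), and CTR had 10.9 CPM. Each TAµ library was below each µ library for Mki67. Cdkn1a, the gene of the p21 inhibitor, had 82.9, 149.7 and 151 CPM in µ and 82.2, 36.3 and 49.1 CPM in TAµ (-1.28 ± 0.38, adjusted p = 0.677). At IV the Cdkn1a levels were nearly equal. Immediate-early genes, which respond to cell isolation as well as to signals in tissue, held 0 calls among 29, with 24 fitted higher. Their median of 0.27 was 0.49 at IV, -0.12 at ICV and 0.38 at ITL, and without IV TAµ 14 were higher and 15 lower. Fos had 3488, 1731 and 945 CPM in µ and 4596, 1981 and 1663 CPM in TAµ (0.46 ± 0.22, adjusted p = 0.874).

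**Figure D5:**
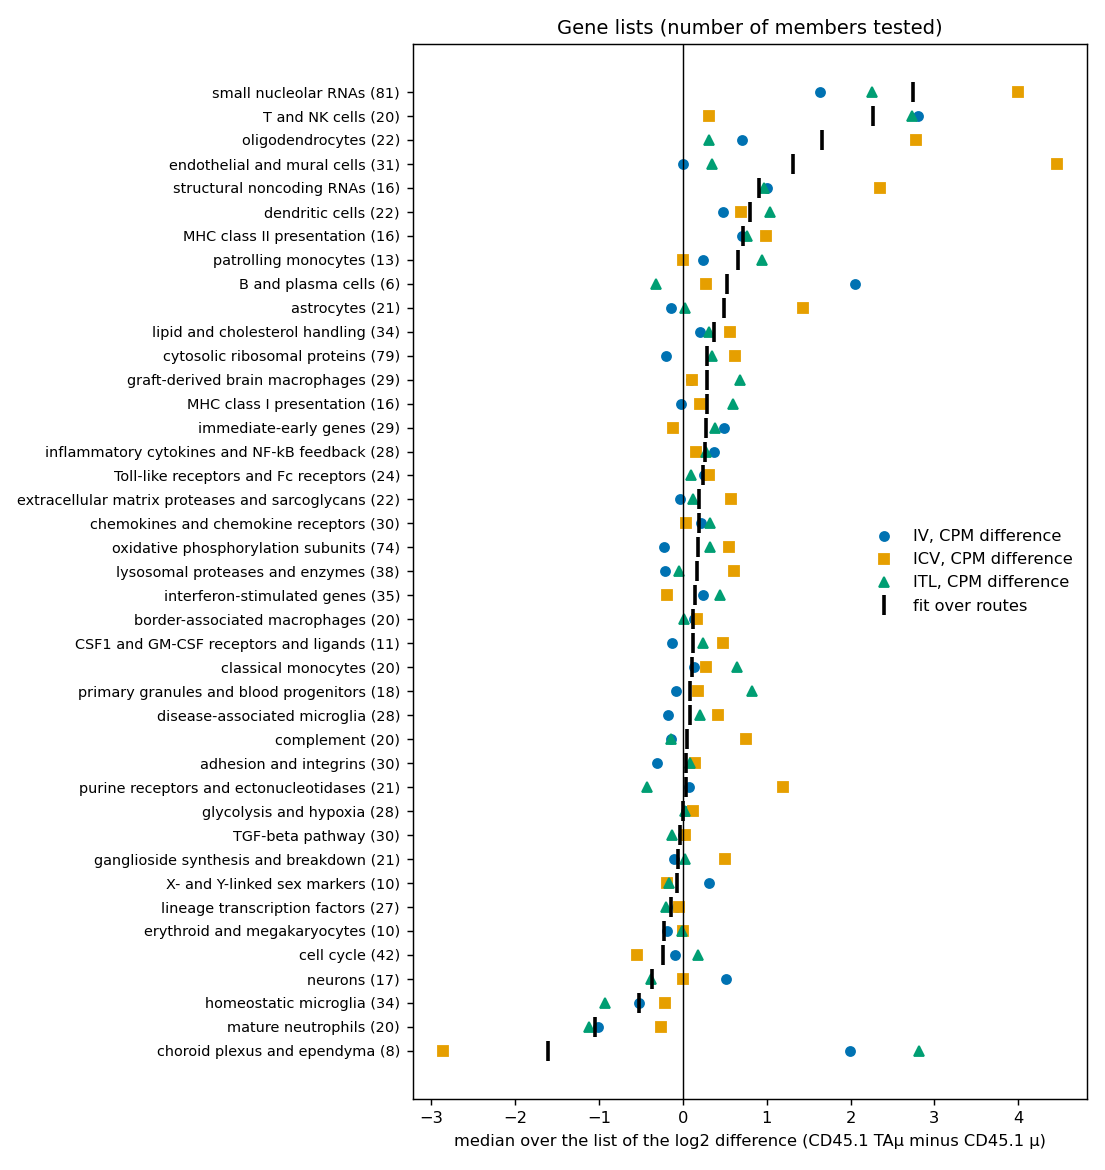
Median log2 difference between CD45.1 TAµ and CD45.1 µ (horizontal axis) for each of the 41 gene lists, with the number of members tested in parentheses, at IV (blue circles), ICV (orange squares), ITL (green triangles) and in the fit over routes (black bars). snoRNAs lie farthest to the right at 2.74, the homeostatic list is at -0.52, and the oligodendrocyte and endothelial lists are carried by ICV.

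Markers of other cells that a myeloid sort of brain could hold were read the same way. Neutrophil genes leaned lower in TAµ, with 2 of 20 tested fitted higher, 18 lower and a median of -1.05, and 0 passed. Their summed level was 15681, 2044 and 4732 CPM in µ and 4588, 1586 and 2490.3 CPM in TAµ, so IV µ stood far above the rest. Without IV µ the median was 0.08, with 10 higher and 10 lower. Ltf, the lactoferrin gene, had 2394, 185 and 445 CPM in µ and 412, 119 and 95.9 CPM in TAµ (-2.01 ± 0.96, adjusted p = 0.874). Csf3r, the receptor gene for granulocyte growth factor, was lower in every TAµ library, at 409, 243 and 284 CPM against 638, 544 and 470.4 CPM in µ (-0.85 ± 0.25, adjusted p = 0.580). Csf3r RNA was also found where Ltf was absent, since the IV library of CD45.2 µ had 461 CPM of Csf3r and 0 CPM of Ltf. CTR had 661 CPM of Csf3r, above every CD45.1 library, and 219 CPM of Ltf. Genes of primary granules and blood progenitors divided, with 10 of 18 tested fitted higher, 8 lower, 0 called and a median of 0.09. Mpo, the gene of a granule enzyme made by immature granulocytes, had 3.15, 0 and 0 CPM in µ and 33.7, 106 and 2.91 CPM in TAµ (5.05 ± 0.97, adjusted p = 0.0737). Elane, another such enzyme gene, had 0.0583, 0 and 1.39 CPM in µ and 12.1, 31.2 and 0.896 CPM in TAµ (5.02 ± 1.46, adjusted p = 0.621) and was lower in TAµ at ITL. Cd34, a progenitor marker gene, stood at -1.02 ± 0.40 (adjusted p = 0.874) and was lower in every TAµ library.

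The 2 monocyte lists differed in how they held up as libraries were left out. The classical monocyte list had a median of 0.11 with 14 of 20 fitted higher and 0 called, and it ran from -0.32 without IV TAµ to 1.13 without IV µ. The patrolling monocyte list had a median of 0.65 with 10 of 13 fitted higher and 0 called. It ran from 0.39 without ICV µ to 1.20 without IV µ, and was 0.85 without the ICV pair, with 13 higher and 1 lower. Adgre4, a receptor gene of patrolling monocytes, had 4.55, 0 and 15.3 CPM in µ and 28, 10.1 and 119 CPM in TAµ (3.11 ± 0.74, adjusted p = 0.237). Ace, which encodes the angiotensin-converting enzyme, had 4.37, 13.3 and 29.7 CPM in µ and 48.9, 5.53 and 144 CPM in TAµ (1.98 ± 0.69, adjusted p = 0.874). For both genes ITL TAµ was the highest library. Dendritic cell genes had a median of 0.79 with 16 of 22 fitted higher and 0 called, and a median of 1.28 without ICV TAµ.

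T and NK cell transcripts were low in both populations. Of 31 listed genes in the tables, 13 had 0 counts in all 3 µ libraries and 1 in all 3 TAµ libraries. Among the 20 tested, 17 were fitted higher and 3 lower, 0 passed, and the median was 2.27, or 1.94 with members at 0 in µ set to their limit. By route it was 2.81 at IV, 0.31 at ICV and 2.73 at ITL. Of the 20, 7 were at 0 in all 3 µ libraries and so passed the filter through other libraries alone. With no limit set for such members, the median was 0.62 without IV TAµ, with 8 higher and 4 lower. It was 4.67 without ICV TAµ, with 15 higher and 2 lower. The members that passed the filter differed between these fits, so these medians do not describe 1 fixed list. Their summed level was 59.1, 34 and 52.5 CPM in µ and 117, 57.1 and 101 CPM in TAµ. Prf1, the perforin gene, had 0 counts in µ and 5.32, 0 and 3.25 CPM in TAµ, at least 12.6-fold higher in the mean against the limit of 0 counts per library. Gzma, a granzyme gene, had 0 counts in µ and 4.44, 0 and 4.48 CPM in TAµ. Ccl5, a chemokine gene of T and NK cells, had 2.51, 1.14 and 1.48 CPM in µ and 20.8, 2.10 and 9.75 CPM in TAµ (2.66 ± 1.01, adjusted p = 0.874). The ICV TAµ library was the lowest of the TAµ libraries for these 3 genes. It was the highest for Gzmb, another granzyme gene, which had 0 counts in µ and 3.55, 4.39 and 3.92 CPM in TAµ. Gzmb did not pass the test either (adjusted p = 0.874). More genes of any kind were detected in TAµ, as given above, and the part of that in these values was not tested.

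Oligodendrocyte and endothelial markers were carried by ICV TAµ. The oligodendrocyte list had a median of 1.66 (1.35 with members at 0 in µ at their limit), 21 of 22 fitted higher and 0 called, and its summed level was 1173, 1081 and 1516 CPM in µ and 832, 3099 and 1412 CPM in TAµ. Without ICV TAµ its median was -0.39, and without the ICV pair -0.07. Cldn11, a myelin claudin gene, had 0, 0 and 1.83 CPM in µ and 0.824, 125 and 6.50 CPM in TAµ (5.96 ± 1.47, adjusted p = 0.327). The endothelial and mural list had a median of 1.31 with 24 of 31 fitted higher and 0 called, and summed levels of 337, 336 and 409 CPM in µ and 258, 1502 and 470.3 CPM in TAµ. Without ICV TAµ its median was -0.32. Flt1, an endothelial receptor gene, had 8.05, 6.59 and 19 CPM in µ and 12.2, 142 and 25.7 CPM in TAµ (2.19 ± 0.78, adjusted p = 0.874). Choroid plexus genes were highest in ICV µ, with a summed level of 4.78, 1339 and 27 CPM in µ and 15.8, 191 and 59.2 CPM in TAµ. Neuron genes had a summed level of 35.9, 72.3 and 52.5 CPM in µ and 17.2, 50.5 and 32.3 CPM in TAµ, lower in TAµ at each route. The members divided, with 8 of 17 tested fitted higher and 9 lower, 0 called and a median of -0.37, which was 0.51 at IV. The median ran from -0.82 without IV µ to 0.96 without ITL µ.

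Snord32a, Snord104 and Rmrp were also highest in ICV TAµ, as were the oligodendrocyte and endothelial sums, and the part of those cells in these RNAs was not tested. Without the ICV pair 0 genes rose and 9 fell, 5 of them among the 10. The log2 difference of Sall1 was -5.15 at IV, -5.31 at ITL and -3.84 at ICV.

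Detection differed in 1 direction. With 0 counts in all 3 µ libraries and at least 1 count in each TAµ library there were 616 genes, and 0 genes showed the reverse. Most were rare: the median of their mean TAµ level was 0.798 CPM, 248 reached 1 CPM and 19 reached 5 CPM. Of the 616, 329 passed the filter and 88 were also at 0 in the 3 CD45.2 µ libraries. Slc25a13, a mitochondrial aspartate-glutamate carrier gene, had the highest level among those named, with 6.28, 12.8 and 10.3 CPM in TAµ, at least 43.2-fold above the limit in µ. It had 1.78, 4.96 and 8.88 CPM in CD45.2 µ, so it was at 0 in CD45.1 µ alone among the 3 populations. P2ry1, a purine receptor gene, had 2.85, 5.91 and 2.58 CPM in TAµ, at least 16.7-fold higher. Cadm2, an adhesion gene of neurons and glia, had 2.92, 8.30 and 2.69 CPM (20.4-fold or more). H2-M2, a class I gene outside the classical set, had 4.75, 3.15 and 2.69 CPM (15.6-fold or more). None of these 4 passed the test, with adjusted p of 0.550 for Slc25a13 and 0.874 for the other 3.

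Across genes, which are not independent replicates, Spearman's rho was 0.924 to 0.964 between TAµ libraries and 0.904 to 0.928 between µ libraries. Between the populations it was 0.891 to 0.931 at the same route and 0.901 to 0.927 at different routes. These ranges overlap, so libraries of the same route were not set apart from libraries of different routes. The genes used may include those that did not pass the filter on low counts, whose ranks rest on few counts.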

How the data were processed

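The authors deposited raw counts, whole numbers of reads for each gene symbol and library. Per the labels' protocols, RNA from sorted myeloid brain cells was purified on micro columns and copied into cDNA, and the molecule is given as polyA RNA. Per the submitters' processing notes, reads were aligned with STAR to a mouse genome named mm39 or GRCm39. Not given in the sources used here are the STAR version, annotation and strand setting. Coordinates are left out because the reference at hand is of another build. Transcript sequences and lengths are from GENCODE M21.

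The 9 libraries of 3 routes and 3 populations (the CD45.1 TAµ, CD45.1 µ and CD45.2 µ cells) were fitted together with route as a block, which left 4 residual degrees of freedom. Each combination has 1 library, so p-values cover the spread left by route and population, not that between animals. Of 24411 genes, 13339 passed edgeR's filter (minimum count 10, minimum total 15). Scaling was by TMM, the test was edgeR's quasi-likelihood F test with Benjamini-Hochberg adjustment over all genes tested at 0.05, and the SE is the log2 fold change divided by the square root of F. Log2 CPM by library used a prior count of 2. For a gene at 0 the limit printed is 3 counts in that library, which covers counting error only. List medians with libraries left out used fitted values without this limit, over the members that passed the filter in each fit. Software was R 4.3.3, edgeR 4.0.16, limma 3.58.1 and DESeq2 1.42.0, and the fit was tested on simulated data.

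The comparison, the 41 gene lists (1154 genes, 1125 in the tables) and the alternatives were chosen with earlier results of these data known, so lists are given as counts and medians without tests. Named genes are those past the threshold. Added to them were up to 10 each way with the smallest p, the same direction at the 3 routes and on average at least 3 log2 CPM, and up to 5 at 0 in 1 population. Up to 6 members of each list with the smallest p were added, as were Ptprc, Itgam, Trem2, Cx3cr1, P2ry12, Tmem119, Apoe, Ms4a7 and Csf1r. Predicted genes were not named. Alternatives were other scaling, filters, tests, blocks and sets of libraries.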

Additional observations from a re-analysis of the deposited data

Results flagged for a closer look

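The PBS library, which enters no comparison here, had a signal that the CTR library lacked. Xist had 6049 CPM in PBS and 0 counts in CTR, where the limit for 0 is 0.25 CPM. PBS was also above 5702 CPM, the highest CD45.1 level of Xist, found in ICV µ. The summed Y-linked level was 0.0504 CPM in PBS and 339 CPM in CTR.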

How the results depend on the processing

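Beside the 10 calls, edgeR gave 23 with no filter on low counts, 2 with at least 10 CPM in 3 libraries, 3 with the legacy quasi-likelihood fit, 2 with no route block, 24 with all 11 libraries and 6 with structural noncoding RNAs left out of the table. DESeq2 called 217 genes (167 higher, 50 lower), all 10 among them, and limma-voom with quality weights 17, of which 6 were among the 10. With 1 library left out the count ran from 0 to 24. The cause of these changes was not tested. DESeq2's size factors, the 6 CD45.1 libraries alone, and leaving out both IV CD45.2 µ and the CD45.1 µ library of ICV gave 10, 10 and 12 calls. The 12 calls held 6 of the 10, with 1 gene higher and 11 lower. Leaving out the ICV pair, chosen after seeing the data, gave 9. The 10 called genes kept their sign in all 207 values computed, and DESeq2's size factors moved the median of all genes from 0.057 to 0.061. Signs changed for 5 followed genes that were not called. With 1 library left out, values ran from -0.45 to 0.11 for Tmem119, from -0.17 to 0.13 for Cx3cr1, from -0.21 to 0.16 for Csf1r, from -0.31 to 0.57 for Apoe and from -0.23 to 0.67 for Trem2. Csf1r was at 0.0029 with at least 10 CPM in 3 libraries. Apoe and Trem2 were both at -0.32 with the ICV library of CD45.1 µ and the IV library of CD45.2 µ left out. Without the ICV pair Apoe was at -0.043 and Trem2 at -0.33. Libraries were paired by route, the block of the fit. The 6 CD45.1 libraries alone are the paired fit of the 2 populations, and it kept 8 of the 10 calls. No label gives an animal or a replicate number. The fit had 4 residual degrees of freedom and a biological coefficient of variation of 0.842, and depth limits levels under 0.175 to 0.336 CPM, which 0 counts allow in the 6 libraries.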

Other observations

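The CD45.2 ICV library labelled PBS belongs to no group of the comparison. Its levels of the genes that fell in TAµ can be set beside the 6 CD45.1 libraries. Sall1 had 84.8 CPM in PBS, Sall3 19.8 CPM and Adamts1 99.1 CPM, inside the range of CD45.1 µ and above every TAµ library. Nav3 with 33.9 CPM, St3gal5 with 24.4 CPM and Sgce with 7.01 CPM lay above every TAµ library and below every µ library. In CTR all 6 genes were higher than in PBS, with 1058 CPM for Sall1 and 76.1 CPM for Sgce. Snord32a had 125 CPM in PBS and 700.3 CPM in CTR, and Rmrp had 413 and 1643 CPM.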
